A study of Mus musculus with 4 samples.

Results

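KAP1 summits lying deep inside long genes are described here. They come from chromatin immunoprecipitation and sequencing (ChIP-seq) of mouse regulatory T cells, the CD4 T cells that depend on Foxp3 and restrain immune responses. A summit is the position of highest enrichment within a called peak. The members are summits of KAP1 replicate 1 with a replicate 2 summit within 200 bp, on chromosomes 1 to 19. They also lie inside a protein-coding gene and over 10000 bp from the start and end coordinate of every protein-coding gene. The rule found 1821 members among 7641 shared summits on these chromosomes, and among 7720 shared summits on all chromosomes and contigs. The members were thus chosen by the calls of both replicates and by position, so these are given as descriptions with no test.

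The cells were sorted from the spleen of C57BL/6 mice and expanded in culture for 2 weeks. There were 2 samples precipitated with the KAP1 antibody 1Tb-A9 of Active Motif and 2 input samples made without antibody. The inputs were not analysed here. No genotype, treatment or age is given in the labels, nor whether each replicate had its own mice or culture. All cells were of 1 kind, so no conditions were compared, and summit lists cannot be checked against expressed cell type markers.

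KAP1 is encoded by Trim28 and is a corepressor without a DNA-binding domain of its own. KRAB zinc finger proteins bring it to DNA, and it recruits the histone H3 lysine 9 methyltransferase SETDB1 and HP1 proteins. The interior of a long gene is mostly intron. Introns hold enhancers, copies of transposable elements, start sites of shorter isoforms, and small RNA genes, and long introns of T cell genes are known to carry enhancers used in these cells.

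Some members stood at start sites of shorter isoforms, where a reference sequence could be read. RefSeq promoter windows of GRCm38.p6 (the coordinates of mm10), with 250 bases before and 50 after each start, gave 1419 coding starts that themselves lay deep inside genes. Of these, 47 (3.31%, Wilson 95% interval 2.50 to 4.38%) had a member within 500 bp. They belonged to 43 genes. For lncRNA genes, 18 of 1731 deep starts (1.04%) had one. The same distance held a deep replicate 2 summit without a replicate 1 partner at 4.72% of the coding starts.

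The window of Tmpo, which encodes the lamina-associated LAP2 proteins, is shown because its summit ranked highest among the windows that held both summits. The next 6 are the highest-ranking windows that also held the core letters bound by ETS factors, GGAAGT or its complement ACTTCC. Capitals mark these letters, and transcription starts at base 251 of each window.
Tmpo, chr10:91170501-91170800, minus strand: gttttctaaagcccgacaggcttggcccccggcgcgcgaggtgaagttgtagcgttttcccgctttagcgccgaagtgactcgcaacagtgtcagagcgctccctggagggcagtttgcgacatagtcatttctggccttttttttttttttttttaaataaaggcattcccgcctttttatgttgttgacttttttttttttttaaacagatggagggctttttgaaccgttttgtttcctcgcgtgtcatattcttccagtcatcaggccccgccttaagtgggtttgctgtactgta
Wipf1, chr2:73453840-73454139, minus strand: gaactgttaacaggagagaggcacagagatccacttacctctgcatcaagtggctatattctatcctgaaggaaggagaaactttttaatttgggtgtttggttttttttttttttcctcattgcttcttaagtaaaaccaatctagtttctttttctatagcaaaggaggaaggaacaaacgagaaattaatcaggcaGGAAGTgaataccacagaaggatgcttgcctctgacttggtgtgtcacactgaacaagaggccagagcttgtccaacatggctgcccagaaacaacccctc
Fam214a, chr9:74975861-74976160, plus strand: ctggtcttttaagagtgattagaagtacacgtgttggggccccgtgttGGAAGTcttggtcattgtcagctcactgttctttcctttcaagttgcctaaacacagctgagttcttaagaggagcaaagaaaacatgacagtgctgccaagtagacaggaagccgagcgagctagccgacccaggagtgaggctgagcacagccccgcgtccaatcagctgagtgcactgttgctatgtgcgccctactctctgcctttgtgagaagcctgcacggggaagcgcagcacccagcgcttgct
Rassf5, chr1:131200136-131200435, minus strand: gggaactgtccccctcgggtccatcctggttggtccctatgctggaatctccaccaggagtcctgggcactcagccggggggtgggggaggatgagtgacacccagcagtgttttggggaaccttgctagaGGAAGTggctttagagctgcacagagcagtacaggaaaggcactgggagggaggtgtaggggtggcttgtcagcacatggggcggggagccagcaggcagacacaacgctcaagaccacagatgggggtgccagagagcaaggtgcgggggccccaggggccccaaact
Psd4, chr2:24386366-24386665, plus strand: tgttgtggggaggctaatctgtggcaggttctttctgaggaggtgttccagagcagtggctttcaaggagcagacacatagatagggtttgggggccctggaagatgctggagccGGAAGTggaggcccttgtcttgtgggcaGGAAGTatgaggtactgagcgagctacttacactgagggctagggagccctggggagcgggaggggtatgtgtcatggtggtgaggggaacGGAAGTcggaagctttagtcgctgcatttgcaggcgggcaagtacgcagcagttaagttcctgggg
Dock10, chr1:80665303-80665602, minus strand: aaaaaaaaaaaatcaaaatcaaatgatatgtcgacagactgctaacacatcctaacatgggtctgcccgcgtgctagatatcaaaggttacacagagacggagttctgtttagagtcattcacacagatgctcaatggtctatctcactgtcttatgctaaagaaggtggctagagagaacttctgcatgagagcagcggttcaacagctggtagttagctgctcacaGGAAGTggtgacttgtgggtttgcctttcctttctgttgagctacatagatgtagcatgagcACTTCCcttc
Adcy7, chr8:88288816-88289115, plus strand: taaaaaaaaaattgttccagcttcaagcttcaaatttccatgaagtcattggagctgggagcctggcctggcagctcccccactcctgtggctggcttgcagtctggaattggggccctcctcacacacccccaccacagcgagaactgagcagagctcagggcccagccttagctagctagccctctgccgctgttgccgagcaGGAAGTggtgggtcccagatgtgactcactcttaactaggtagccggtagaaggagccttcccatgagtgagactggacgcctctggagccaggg

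In the Tmpo window the replicate 1 summit fell on base 77 and the replicate 2 summit on base 98, with scores of 33.3 and 56.7. The score is the authors' own, a −log10 significance given by their peak caller, and it was used only within a list. Tmpo held no match. Wipf1 encodes a partner of the WASP actin regulator. Its summits fell on bases 62 and 66 (scores 19.8 and 24.8), and its match began at base 200. In Fam214a the summits fell on bases 103 and 106 (14.3 and 19), and the match began at base 49. Rassf5 encodes RAPL, an effector of the small GTPase Rap1 in lymphocyte adhesion. Its summits fell on bases 187 and 183 (14.4 and 16.5), and its match began at base 132. Psd4 held 3 matches, at bases 116, 144 and 235, with summits on bases 179 and 174 (7.64 and 9.88). Dock10, a guanine exchange factor gene of lymphocytes, held 2 matches, at bases 229 and 291, with summits on bases 192 and 195 (5.79 and 9.61). Adcy7, an adenylyl cyclase gene, held 1 at base 206 and its summits on bases 167 and 157 (5.10 and 7.40). In all 7 windows the summits of both replicates lay upstream of the start. These windows were chosen to hold both summits, and they reach 250 bases before the start but only 50 after it. The upstream position was thus largely set by the choice. Members at some other coding starts lay downstream, as at Runx1 and Prdm1.

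Seen from the summits, 44 of 1773 members outside chromosome 18 (2.48%, Wilson 95% interval 1.85 to 3.31%) lay within 500 bp of a coding start. Of the deep replicate 2 summits without a replicate 1 partner, 67 of 22459 did (0.298%, 0.235 to 0.379%). All such unpaired summits had a median replicate 2 score of 8.31, against 11.4 for all members. Scores were not matched, and their part in this difference was not tested. Chromosome 18 has no entry in the promoter table used here.

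Among the 47 windows with a member within 500 bp, 23 (48.9%, Wilson 95% interval 35.3 to 62.8%) held GGAAGT on either strand. The share was 20.4% of the 1372 other deep coding windows and 24.8% of all 21263 coding windows. The letters TGTGGT of RUNX factors, on either strand, stood in 25.5% of the 47 windows (15.3 to 39.5%), against 16.9% of the other deep windows and 15.0% of all. GGGCGG, the box of SP factors, stood in 53.2%, against 31.4% and 46.2%. CCAAT stood in 40.4%, against 35.3% and 38.2%, and TGACTCA of AP-1 in 4.26%, against 5.76% and 4.66%. The 47 windows had a median GC content of 59.0%, against 52.0% in the other deep windows and 56.3% in all, and the part of base composition in these shares was not tested. The letters were picked with the sequences at hand, and no motif contains another. Windows of the same gene can overlap, as in Plekhg5, Zfp821 and Cntrl, so some bases are counted more than once. A match is a description of letters and not a bound site. The letters read span 250 bases before to 50 after each start, so a member up to 500 bp away can lie outside them. This was the case at Dnmt3a, Runx1 and Prdm1.

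Of the other genes with a member at an internal start, 5 are described here, chosen after their values were seen. Runx1, a transcription factor gene of the T lineage, has an outer and an inner promoter. A member at position 92697207 of chromosome 16 lay 122 bp downstream of the inner start, with scores of 18 and 37.1. Dnmt3a encodes a DNA methyltransferase whose shorter isoform starts inside the gene. Its member at position 3891259 of chromosome 12 lay 485 bp upstream of the start at 3891744, with scores of 32.7 and 72.3. Prdm1, which encodes Blimp-1, had one 482 bp downstream of an inner start (9.37 and 16.0). Stag1, a cohesin subunit gene, had one 96 bp upstream (35.8 and 32.4), and Ppp2r5c, a regulatory subunit gene of phosphatase PP2A, one 180 bp upstream (19.8 and 32.9). All of these had a summit in both replicates, as the rule requires.

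The lists of both replicates differed greatly in length, and their read depth is unknown. Replicate 1 had 8862 summits and replicate 2 had 79515. Deep gene interiors held 2061 replicate 1 summits, or 23.5% of those on the numbered chromosomes, and 25087 replicate 2 summits, or 31.8%. The median score over the whole list was 7.25 in replicate 1 and 8.39 in replicate 2. Intervals given here cover counting error only, and summits in 1 gene are not independent.

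Deep interiors carried the largest number of shared summits among 5 location classes, but few per unit of length. The members made up 23.8% of the shared summits (Wilson 95% interval 22.9 to 24.8%), on 702 Mb, or 28.8% of the span from the first to the last gene or summit of each chromosome. This gave 2.59 members per Mb. Sites within 1 kb of a coding gene end made up 22.5% on 74.7 Mb, or 23.0 per Mb. Sites inside genes at 1 to 10 kb from an end had 6.26 per Mb, sites outside genes in the same range 5.24, and sites outside genes and over 10 kb from every end 1.25. By chromosome, members ranged from 1.75 per Mb of deep interior on chromosome 14 to 4.72 on chromosome 11. The share of shared summits that were deep ranged from 17.6% on chromosome 7 to 33.0% on chromosome 16.

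The rule sets a minimum distance of 10000 bp from every coding gene end. Above it, the median distance to the nearest end was 28.1 kb, 626 members lay 10 to 20 kb from one, 449 over 50 kb and 139 over 100 kb. The farthest was 708 kb from an end. Just inside the limit of 10000 bp were summits in Bach2 (10015 bp; scores 9.5 and 8.34), Naa15 (10017 bp; 5.56 and 9.15), Napepld (10026 bp; 37.0 and 46.4) and Prrc2b (10041 bp; 8.29 and 34.4). Just outside it were summits in Coro2a (9989 bp; 15.5 and 19.8), Srpk1 (9988 bp; 13.2 and 20.4), Ninj2 (9956 bp; 10.7 and 12) and Pom121 (9954 bp; 31.9 and 45.7).

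Scores of the members ranged from 1.35 to 105 in replicate 1, with a median of 7.64 and quartiles of 5.10 and 13.2. In replicate 2 they ranged from 2.92 to 151, with a median of 11.4 and quartiles of 7.43 and 20.7. Summits at gene ends had medians of 8.34 and 12.8. The members' scores took 288 distinct values in replicate 1, so many are tied. Across the 1821 members, the scores of both replicates had a Spearman rank correlation of 0.772. This describes sites of 2 libraries that were called in both, and sites are not replicates. The paired summits lay a median of 6.00 bp apart, and 214 pairs fell on the same base.

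**Figure D1:**
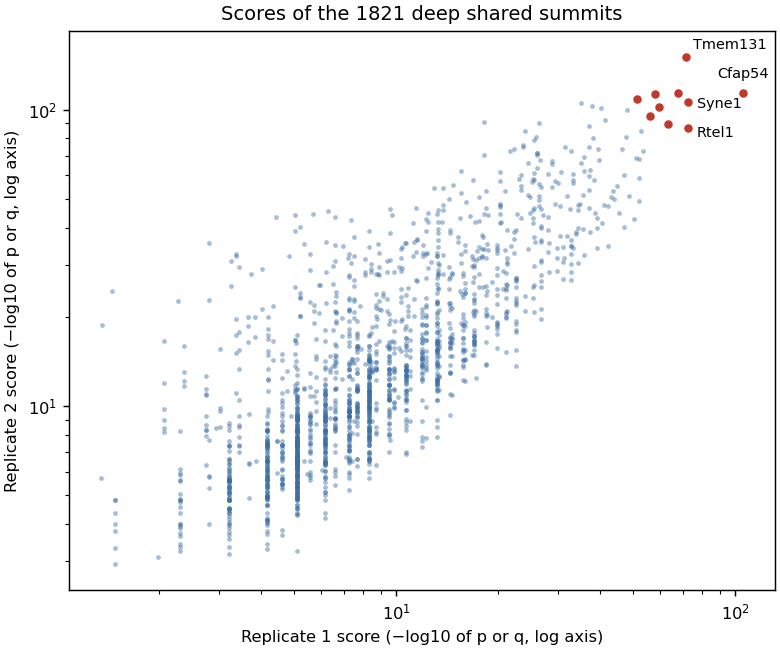
Replicate 1 score (x axis) against replicate 2 score (y axis) of the 1821 members, both −log10 significance, on log axes; red points are the 10 members with the highest mean percentile rank. The vertical stripes are tied replicate 1 scores, and the red points lie at 51.3 or more in replicate 1 and 87.0 or more in replicate 2.

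Replicate 1 summits deep in genes were mostly found again, while few of the deep replicate 2 summits were. A partner existed for 1821 of 2061 deep replicate 1 summits (88.4%, Wilson 95% interval 86.9 to 89.7%), close to the 88.3% at gene ends (86.8 to 89.7%). The share was higher at higher scores, from 68.5% of the deep summits in the lowest 10% of replicate 1 scores to 186 of 186 in the highest 10%. The 240 deep replicate 1 summits without a partner had a median score of 4.86 and reached 14.3. From the other side, 7.26% of the 25087 deep replicate 2 summits had a partner (6.94 to 7.59%). The share was 34.8% at gene ends (33.5 to 36.2%) and 5.29% outside genes and over 10 kb from every end (5.04 to 5.55%). These shares are limited by the number of replicate 1 summits in each class. Replicate 1 had 2061, 1944 and 1772 summits in these 3 classes, and replicate 2 had 25087, 4933 and 28965. The replicate 1 shares with a partner were 88.4%, 88.3% and 86.5%. The replicate 2 shares thus mostly restate how both lists divide among the classes.

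The replicate 2 shares also differed between classes within bins of the replicate 2 score, where the number of replicate 1 summits limits them too. The highest bin is wide (15.5 to 154), and scores within a bin were not matched between classes. In the highest 10% of replicate 2 scores, 31.2% of 2101 deep summits had a partner (29.3 to 33.2%), against 67.0% of 1082 at gene ends (64.1 to 69.7%) and 25.2% of 2276 far from genes (23.5 to 27.0%). In the lowest 10% the shares were 6.79%, 27.1% and 5.03%. In each of the 10 score bins the deep share lay below that at gene ends and above that far from genes.

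**Figure D2:**
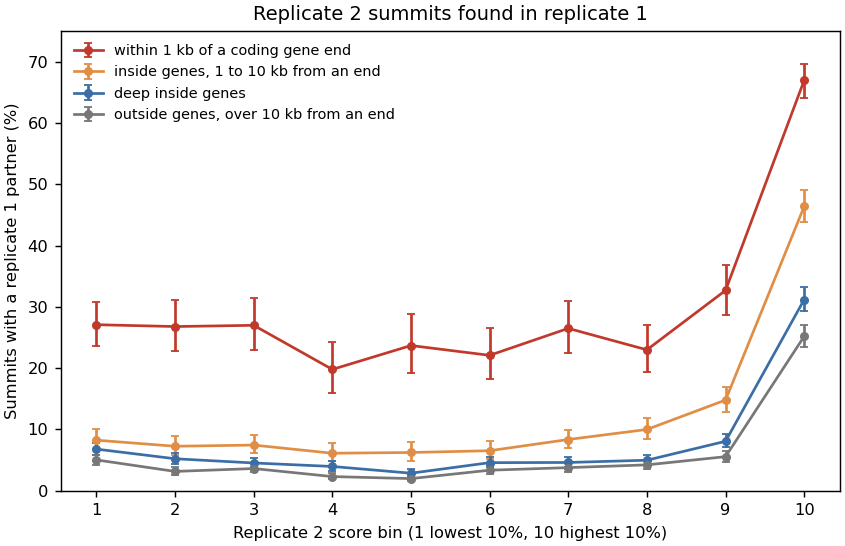
Share of replicate 2 summits with a replicate 1 summit within 200 bp (y axis, %) in 10 bins of the replicate 2 score (x axis), by location class; bars are Wilson 95% intervals. Deep summits (blue) reach 31.2% in the highest bin, and summits at gene ends (red) 67.0%.

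The strongest members lay in genes of varied function. Cfap54, a gene of ciliary structure, held the member with the highest mean percentile rank over both lists, at position 93070807 of chromosome 10, with scores of 105 and 114. Tmem131 held one at position 36892699 of chromosome 1, 46.9 kb from the 5′ end of the gene, with 71.6 in replicate 1 and 151 in replicate 2. Syne1 encodes nesprin-1, which links the nuclear envelope to the cytoskeleton. Its summit at position 5195117 of chromosome 10 lay 175 kb from the nearest coding gene end and scored 72.4 and 106. Rtel1, a helicase gene of telomere maintenance, had 72.4 and 87.0 at position 181334172 of chromosome 2.

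Scn8a, a voltage-gated sodium channel gene, held a summit at position 100905162 of chromosome 15 with scores of 67.8 and 114. It lay 23 bp from an end of the lncRNA gene Gm52176. Cfdp1 had 63.4 and 89.6, Csnk1g3 59.5 and 102, and Tacc1 57.8 and 113. Bmp7, the gene of a bone morphogenetic protein, had 56.2 and 95.4, and Cradd, a death-domain adaptor gene, 51.3 and 109. The top 10% of both lists held 186 members (10.2%), against 874 of the 7641 shared summits (11.4%).

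The members fell in 1213 host genes of the 9425 coding genes long enough to have a deep interior (12.9%, Wilson 95% interval 12.2 to 13.6%). At least 1 deep replicate 2 summit, paired or not, lay in 6000 of them (63.7%). Of the hosts, 847 had 1 member, 230 had 2, 81 had 3, 26 had 4 and 29 had 5 or more. The 136 hosts with 3 or more held 517 members, or 28.4%. Inside 2 overlapping coding genes lay 9 members, which count for both. Hosts had a median length of 92.9 kb and the other eligible genes one of 45.6 kb.

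Members per Mb were fewer in longer genes. The value was 5.28 in genes of 20 to 50 kb, 4.62 at 50 to 100 kb, 3.65 at 100 to 200 kb, 1.79 at 200 to 500 kb and 0.353 above 500 kb. The unpaired deep replicate 2 summits numbered 43.1 per Mb in the shortest class and 24.5 in the longest. The share of genes that were hosts was 5.38% (4.77 to 6.06%) in the shortest class, 25.1% (22.1 to 28.4%) at 200 to 500 kb and 14.8% (10.7 to 20.2%) above 500 kb. The 5 longest coding genes measured 1998 to 2271 kb. Of these, Lrp1b held 1 member and 41 unpaired replicate 2 summits. Ptprd, Cntnap2, Lsamp and Macrod2 held no member, and a count of 0 allows up to 3 in each. They held 50, 56, 52 and 44 unpaired replicate 2 summits, or 22.2 to 25.2 per Mb.

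**Figure D3:**
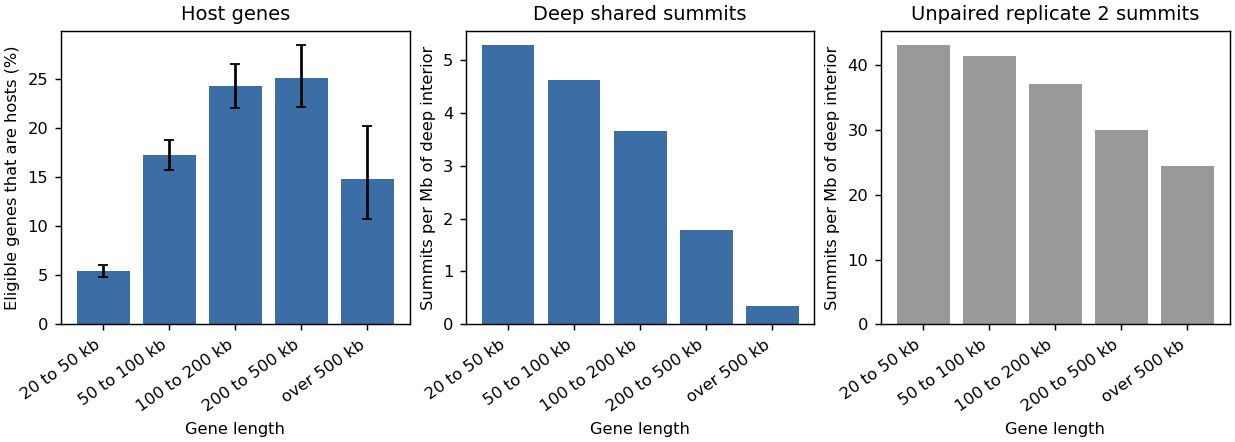
Share of eligible genes that hold a member (left, %, bars are Wilson 95% intervals), members per Mb of deep interior (middle) and unpaired deep replicate 2 summits per Mb (right), each by gene length. Members drop from 5.28 to 0.353 per Mb, and unpaired replicate 2 summits from 43.1 to 24.5.

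The gene with the most members was Maml3, which encodes a Mastermind coactivator of Notch. It held 10 in 418 kb, with replicate 1 scores of 4.17 to 23.6 and replicate 2 scores of 3.43 to 76.0. The strongest, at position 52000156 of chromosome 3, fell on the same base in both replicates. Another 4 lay within 13.7 kb, between positions 51744669 and 51758367, with lower scores. Prkch, the gene of protein kinase C eta, held 9 in 193 kb, with scores of 2.74 to 14.4 and 5.31 to 17.2. Akap13, which encodes an A-kinase anchor protein, also held 9, with 3.21 to 34.3 and 5.28 to 30.3. Its strongest lay at position 75572356 of chromosome 7, 117 kb from the 5′ end.

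Clec16a, a gene of membrane traffic in a region linked to autoimmune disease, held 8, with replicate 1 scores of 5.10 to 17.0 and replicate 2 scores of 5.87 to 17.7. Sgms1, a sphingomyelin synthase gene, held 8 with wider ranges (3.21 to 32.7 and 4.42 to 50). Fnbp1, an F-BAR membrane protein gene, held 7 in 119 kb (4.17 to 35.5 and 4.84 to 39.7). Osbpl3, an oxysterol-binding protein gene, held 7 (7.25 to 22.2 and 6.60 to 32.8), of which 5 lay within 16.4 kb. Rere, which encodes an atrophin family corepressor, held 7 (5.10 to 35.7 and 5.99 to 62.2). Tiam1, an exchange factor gene for Rac, held 7 (4.17 to 18.5 and 5.83 to 20.3).

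Itpkb encodes an inositol trisphosphate kinase of lymphocytes and held 6 members in only 94.4 kb, with scores of 4.61 to 24.8 and 5.47 to 44.9. Thada held 6 (4.17 to 25.9 and 4.93 to 81.1), and Ankrd44, a subunit gene of phosphatase PP6, 6 (5.10 to 15.9 and 6.67 to 27.6). Atxn1, a gene of 415 kb, also held 6 (6.16 to 29.9 and 6.56 to 56.6) and was placed after these genes because ties went to the shorter gene. In the 12 genes before it strong and weak members stood side by side, and the highest replicate 2 score of a gene ranged from 17.2 in Prkch to 81.1 in Thada.

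**Figure D4:**
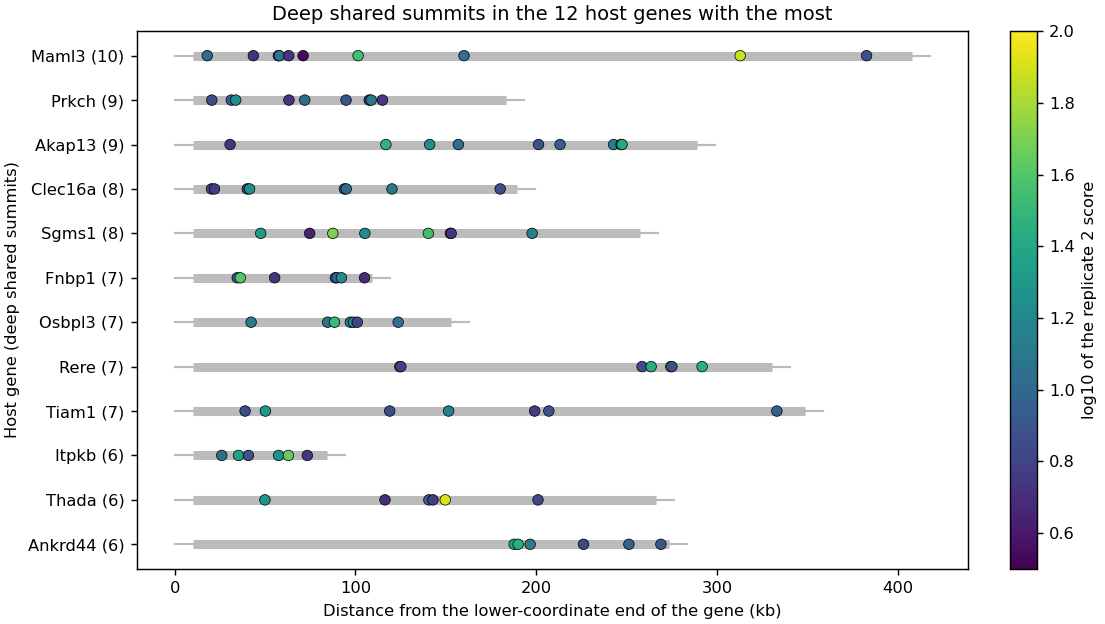
Members (points) along the 12 host genes with the most (ties to the shorter gene, which leaves out Atxn1 with 6), by distance from the lower-coordinate end of each gene (x axis, kb); thick grey bars mark the gene over 10 kb from its own ends, and colour is the log10 of the replicate 2 score. Maml3 holds 10 members, and the brightest points lie in Thada and Maml3.

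Members were spread along genes, and the side with more of them differed with the distance from the end. A strand was known for 7454 of the 9102 eligible genes outside chromosome 18 (81.9%). Of 1446 members in 1 such host, 773 lay nearer the 5′ end (53.5%, Wilson 95% interval 50.9 to 56.0%), against 50.7% of 18313 unpaired deep replicate 2 summits (50 to 51.5%). At 10 to 20 kb from the 5′ end there were 5.22 members per Mb of deep interior, and at 10 to 20 kb from the 3′ end 3.88. At 20 to 50 kb the values were 4.03 from the 5′ end and 4.10 from the 3′ end. At 50 to 100 kb they were 2.91 and 3.52, at 100 to 200 kb 2.18 and 2.33, and beyond 200 kb 0.720 and 0.694.

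A minority of members stood in groups. Another member lay within 10 kb of 453 members (24.9%) and within 1 kb of 87. Chained at gaps of at most 10 kb, 1368 members were single, and 36 groups had 3 or more. The largest had 5 members each. They lay in Osbpl3, in Bptf over 17.2 kb, and in Ryr1 over 22.2 kb. Bptf encodes the large subunit of a nucleosome remodelling complex, and Ryr1 a calcium release channel best known from skeletal muscle. Groups of 4 members lay in Septin9 over 8.26 kb, in the Maml3 stretch given above and in Wipf1 over 18.2 kb.

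Which kinds of long genes held members was described for 15 gene lists, some of which share genes. Over all eligible genes, 12.9% were hosts, the members numbered 2.59 per Mb of deep interior, and the median gene held 0. The 6 lists of T cell and signalling genes all lay above 10 members per Mb. Their median gene lengths were 34.1 to 101 kb. Eligible genes of 20 to 50 kb had 5.28 members per Mb, those of 50 to 100 kb 4.62 and those of 100 to 200 kb 3.65. The ratios of lists to all eligible genes given below are not matched for length. In T cell receptor signalling genes, 13 of 24 eligible genes were hosts (54.2%, Wilson 95% interval 35.1 to 72.1%), with 31 members or 19.8 per Mb and a median of 1.00 per gene. Unpaired deep replicate 2 summits stood at 39.6 per Mb in this list and at 33.1 over all eligible genes. Using all deep replicate 2 summits in place of members, the ratio of this list to all eligible genes went from 7.66 to 1.67, and with all deep replicate 1 summits it was 7.85. Members make up 88.4% of the deep replicate 1 summits, so the replicate 1 value is not independent of that of the members. Lists and members were chosen with earlier results of these data known, so the counts are descriptions.

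Of the receptor signalling genes, Prkch was followed by Prkcq, which encodes protein kinase C theta of the immune synapse and held 5 members. Its scores were 11.9 and 8.88, 33.1 and 34.1, 6.59 and 6.15, 6.59 and 9.14, and 5.10 and 8.82 in replicates 1 and 2. The strongest lay at position 11193400 of chromosome 2, 21.5 kb from the 5′ end. Gata3, a T lineage and helper type 2 transcription factor gene, has a deep interior of only 10.9 kb and held 3 members (26.8 and 39.9, 11.9 and 7.85, 16.7 and 14.9). It is not a signalling gene although this list holds it, and its members count again among the T lineage and helper factors. Cblb, a ubiquitin ligase gene that restrains T cell activation, held 3, with replicate 1 scores of 3.21 to 21.2 and replicate 2 scores of 5.71 to 31.6.

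Among costimulatory and inhibitory receptor genes, 4 of 13 were hosts (30.8%, 12.7 to 57.6%), with 4 members or 15.4 per Mb. With replicate 2 alone the ratio to all eligible genes went from 5.94 to 0.969. Tigit, an inhibitory receptor gene, held the strongest, at position 43650469 of chromosome 16 (34.3 and 47.8). Icos, a costimulatory receptor gene, held 1 (17.0 and 17.1), Cd6 1 (4.61 and 5.26) and Cd226 1 (4.17 and 5.01). The last of these were weak in both replicates.

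Among IL-2, JAK and STAT genes, 6 of 16 were hosts (37.5%, 18.5 to 61.4%), with 11 members or 22.6 per Mb, a ratio of 8.76 to all eligible genes that was 1.79 with replicate 2 alone. Stat5b, which encodes a transcription factor activated by interleukin-2, held 4. Their scores were 12.2 and 13.2, 6.16 and 4.37, 14.4 and 15.7, and 6.16 and 7.22. Jak1 held 2 (5.10 to 17.0 and 9.06 to 29.4), Stat4 2 (5.21 to 11 and 11.4 to 24.1) and Il2rb, the receptor's beta chain gene, 1 (19.8 and 18.8). Il2ra, the alpha chain gene, has a deep interior of 30.4 kb and held no member, with 1 unpaired replicate 2 summit there.

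Of the T lineage and helper transcription factor genes, 19 of 31 were hosts (61.3%, 43.8 to 76.3%), with 47 members or 10.5 per Mb, a ratio of 4.07 that was 1.48 with replicate 2 alone. Bach2, a repressor gene of naive and regulatory T cells, held 5 across 348 kb. The strongest scored 13.3 and 34.3 at position 32288064 of chromosome 4, and the weakest in replicate 2 scored 4.17 and 5.11. Ets1, the gene of the founding ETS factor, held 5 with low replicate 1 scores of 2.06 to 8.72 and replicate 2 scores of 3.98 to 16.0. Runx1 held 4. Beside the one at its inner start, they scored 2.06 and 8.16, 5.10 and 5.92, and 5.10 and 4.86. Rora, a nuclear receptor gene, held 4 (1.48 to 23.9 and 3.79 to 32.9). Ikzf2, which encodes Helios, held none in its deep interior of 136 kb, but 10 unpaired replicate 2 summits. Foxp3 and Trim28, at 15.6 and 6.88 kb, are too short to have a deep interior.

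For NF-kappaB, NFAT and AP-1 genes, 9 of 15 were hosts (60.0%, 35.7 to 80.2%), with 12 members or 17.8 per Mb, a ratio of 6.88 that was 1.66 with replicate 2 alone. The list is wider than its name, and its hosts included Mef2a, Mef2d and Atf7ip, with 1 member each, which belong to none of the 3 families. Nfatc2, a calcium-activated transcription factor gene, held 3 (3.21 to 12.2 and 5.06 to 20). Nfatc3 held 1 strong member (31.0 and 34.5). Nfkb1 held 2 (8.72 to 9.86 and 9.66 to 13.1), and Nfkbiz, the gene of an atypical inhibitor of NF-kappaB, 1 (10.3 and 23.4).

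In the regulatory T cell signature, 9 of 19 eligible genes were hosts (47.4%, 27.3 to 68.3%), with 18 members or 13.6 per Mb, a ratio of 5.27 that was 1.78 with replicate 2 alone. Nrp1, a surface receptor gene, held 3 (7.25 to 17.9 and 7.71 to 31.9), and Prdm1 3 (9.37 to 14.4 and 13.0 to 30.3). Neb encodes nebulin of muscle and stands on both this list and the muscle list. It held 3 (3.21 to 12.2 and 4.54 to 9.93).

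Of the broader lists, adhesion, migration and cytoskeleton genes had 10 hosts of 25 (40.0%) and 6.62 members per Mb, a ratio of 2.56 to all eligible genes that was 1.28 with replicate 2 alone. Dock10 held 5, and Elmo1, which joins Dock proteins in activating Rac, 4 (2.31 to 17.6 and 5.87 to 42.2). Wipf1 also held 4 (3.21 to 19.8 and 5.30 to 30.3), and Rapgef6 held 3 (5.10 to 9.86 and 6.20 to 13.0). Ubiquitin ligase and mTOR regulator genes had 11 of 26 (42.3%) and 8.48 per Mb, a ratio of 3.28 that was 1.46 with replicate 2 alone. There Pik3r1, the regulatory subunit gene of phosphoinositide 3-kinase, held 3 members, with the strongest at 47.0 and 60.2. Foxn3, a forkhead factor gene that this list also holds, had 2 (15.5 and 32.5, 26.3 and 90.3), and Nedd4l, a ubiquitin ligase gene, 2 (5.10 to 20.2 and 5.31 to 57.3).

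Chromatin regulator genes had 13 hosts of 35 (37.1%) and 5.08 members per Mb. Hdac4, a histone deacetylase gene, held 3 (5.10 to 17.0 and 9.66 to 18). Chd2, a chromatin remodeller gene, held 2 (8.72 to 14.4 and 14.8 to 15.3), and Smarca2, an ATPase gene of the SWI/SNF complex, 2 (4.17 to 10.7 and 8.39 to 12.7). KAP1 and its silencing partners had a median length of 52.7 kb. Eligible genes of 20 to 50 kb had 5.38% hosts and 5.28 members per Mb, and those of 50 to 100 kb 17.2% and 4.62. The list had 2 hosts of 19 (10.5%, 2.94 to 31.4%) and 2.77 per Mb, near the 12.9% and 2.59 over eligible genes of all lengths. These were Morc3 (11.9 and 17.5) and Atf7ip (2.31 and 6.14).

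Genes of other tissues had from 0 to 7.80 members per Mb. Of 40 neuronal genes, with a median length of 1112 kb, 2 were hosts (5.0%, 1.38 to 16.5%). They held 3 members in 45.4 Mb, or 0.0661 per Mb, against 22.9 unpaired replicate 2 summits per Mb. With replicate 2 alone the ratio to all eligible genes went from 0.0256 to 0.644. Eligible genes above 500 kb, of any kind, had 0.353 members and 24.5 unpaired replicate 2 summits per Mb. Sox5 held 2 (6.16 to 11.9 and 9.63 to 14.7), and Lrp1b 1 (6.91 and 12.3). None of 11 eligible B cell marker genes was a host, in 1.52 Mb. A count of 0 allows up to 27.3% of the genes, above the 12.9% over all eligible genes, and up to 1.98 members per Mb, below the 2.59 over all. Unpaired replicate 2 summits numbered 23.7 per Mb there, and with replicate 2 alone the ratio to all eligible genes was 0.665.

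Muscle genes had 6 hosts of 15 (40.0%, 19.8 to 64.3%) and 2.45 members per Mb. Ryr1 held 5 of the 12 members, with scores of 5.56 to 13.2 and 6.73 to 24.0. Ryr3 held 1 (13.2 and 16.1). Myeloid markers had 2 of 10 (20%, 5.67 to 51.0%) and 7.80 per Mb, a ratio of 3.02 to all eligible genes that was 0.802 with replicate 2 alone. The myeloid list had a median length of 44.6 kb, and eligible genes of 20 to 50 kb had 5.28 members per Mb. Its value rests on 3 members in 0.385 Mb. They lay in Zbtb46 (3.21 to 11 and 4.92 to 13.1) and Itgam (8.72 and 20.2). Endothelial, fibroblast and epithelial markers had 3 of 16 (18.8%) and 0.995 per Mb, a ratio of 0.385 that was 0.818 with replicate 2 alone. They held 1 member each in Vwf (10.3 and 34), Pecam1 (13.2 and 12) and Egfr (8.72 and 10.2). The lists differ in gene length and in the unpaired replicate 2 summits they hold, and the part of either in these counts was not tested.

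**Figure D5:**
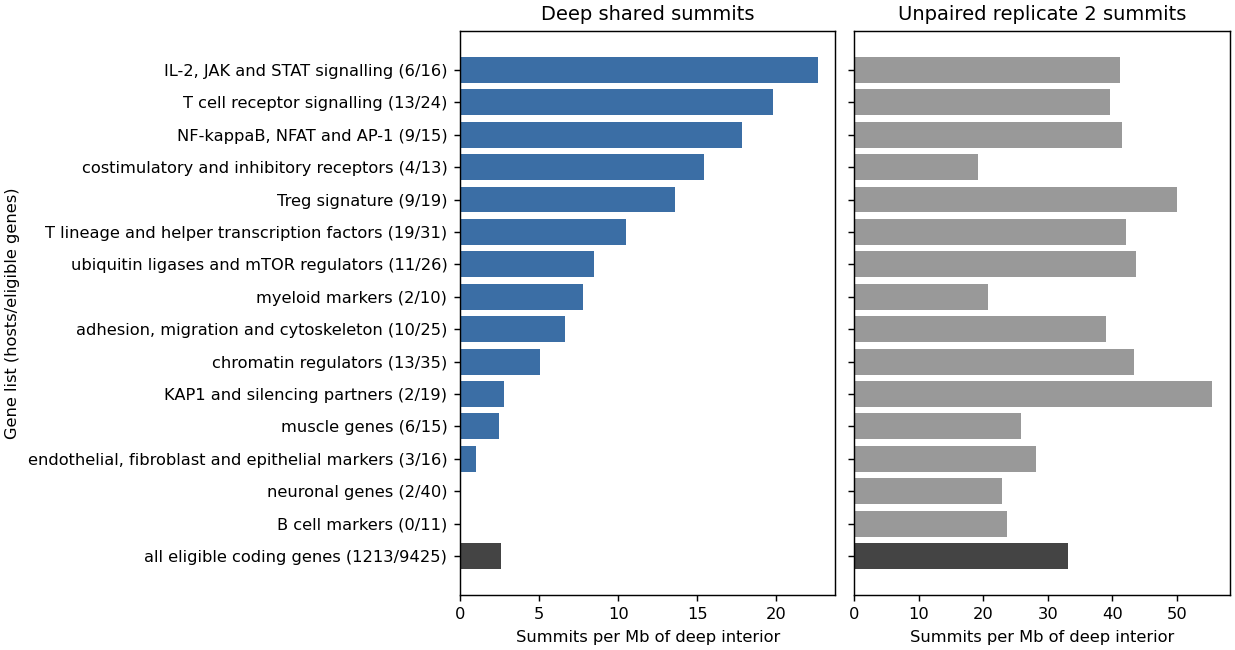
Members per Mb of deep gene interior (left) and unpaired deep replicate 2 summits per Mb (right) for 15 gene lists and for all eligible genes (dark bars); the labels give hosts and eligible genes. The lists run from 22.6 members per Mb in IL-2, JAK and STAT genes to 0.0661 in neuronal genes and 0 in B cell markers, while unpaired summits run from 19.2 to 55.4 per Mb.

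The rule uses coding genes alone, so members can lie at non-coding genes within their hosts. The end of a non-coding gene lay within 1 kb of 72 members (3.95%, Wilson 95% interval 3.15 to 4.95%), against 2.44% of unpaired deep replicate 2 summits (2.25 to 2.65%). For lncRNA genes these were 55 members (3.02%, 2.33 to 3.91%) against 1.37% (1.23 to 1.52%). For pseudogenes they were 5 members (0.275%, 0.117 to 0.641%) against 0.791% (0.685 to 0.913%). Scores were not matched in these comparisons with unpaired summits. No member lay by a tRNA gene, which allows a share of up to 0.165%. The share of unpaired deep replicate 2 summits was 0.0215% (0.00918 to 0.0503%), below that limit, so the count of 0 cannot set members apart.

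The strongest member by a non-coding gene, after that in Scn8a, was in Dpysl2, 355 bp from an end of the lncRNA gene Gm5464. Its scores were 38.1 and 80.2. One in Napepld scored 37.0 and 46.4 and lay 946 bp from the miRNA gene Gm51277. Others by lncRNA genes were in Kalrn (26.8 and 35.7), Smad3 (22.2 and 38.6), Osbpl3 (22.2 and 32.8), Ptk2 (20.4 and 41.7), Pfkp (22.5 and 25.2) and Myo1d (20.2 and 41.3). Smad3 encodes a signal transducer of TGF-beta, and its member lay 68 bp from an end of Gm51710.

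Small nuclear RNA genes, which make parts of the splicing and ribosomal RNA processing machinery, lay within 1 kb of 6 members (0.329%, 0.151 to 0.717%), against 0.0860% of unpaired replicate 2 summits (0.0557 to 0.133%). Of these, 4 lay in Tex14, a gene of germ cell bridges that held 5 members in 151 kb. They stood 131 bp from Rnu1a1, 190 bp from Gm22068, 81 bp from Rnu3b1 and 632 bp from Rnu3b4. Their scores were 6.16 and 5.11, 4.61 and 5.81, 3.21 and 5.37, and 7.25 and 17.7. Copies of such genes are nearly identical, so reads there may be uncertain in place. The other snRNA genes were Gm24722 in Thada (4.17 and 6.5) and LOC115487300 in Cdon (6.59 and 8.46), and a snoRNA gene lay near a member in Mia2 (9.86 and 15.1).

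A miRNA gene lay within 1 kb of 3 members (0.165%, 0.0560 to 0.483%), against 0.0903% of unpaired deep replicate 2 summits (0.0590 to 0.138%). These intervals overlap. One of the 3 members, at position 51269403 of chromosome 6, lay 409 bp from Mir148a, inside the predicted coding gene Gm38821. Its scores were 5.10 and 10.7. Another was in Epc1, 494 bp from Mir1893 (17.0 and 14.9). The mature sequences at Mir148a and Gm51277 are shown, from RefSeq on GRCm38.p6, because they are the small RNAs beside these summits. Capitals mark the seed, bases 2 to 8. The 3 seeds differ.
mmu-miR-148a-3p: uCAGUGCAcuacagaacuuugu
mmu-miR-148a-5p: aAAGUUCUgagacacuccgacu
mmu-miR-12197-3p: gCGGGGCUggggacaucg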

How the data were processed

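KAP1 ChIP-seq was made from 2 samples, with 2 inputs not analysed here. Per the submitters' processing notes, Bowtie2 2.2.9, Picard 2.1.1, MACS2 2.2.1 and build mm10 were used. Caller settings were not given in the sources used here. The authors deposited 1 summit list per KAP1 sample, scored as −log10 significance (p or q is not stated). Depth is unknown.

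Genes came from RefSeq GRCm38.p6 (49980 genes with a position, 21900 coding). Python 3.11.15 with pandas 2.3.3 paired summits within 200 bp and placed them. The nearest partner was used. An eligible gene has at least 1 base over 10 kb from every coding gene end. Unpaired replicate 2 summits have no replicate 1 summit within 200 bp. Members, lists and rules were chosen with earlier results of these data known. With 2 samples of 1 group no test was made. Named genes were the hosts of the 10 highest-ranking members (mean percentile of both scores), the 12 hosts with the most members (ties to the shorter gene), up to 4 hosts per list, the 5 longest genes, members at the limit and at non-coding genes (some not reported here), the largest groups, and Ikzf2, Il2ra, Stat5b, Runx1, Ets1, Bach2, Foxp3 and Trim28; genes with inner starts were chosen after their values were seen. Alternatives changed the pairing distance, gene distance, scores, gene types, chromosomes, merging and replicates. The code was tested on simulated data.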

Additional observations from a re-analysis of the deposited data

How the results depend on the processing

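The number of members followed the settings that shorten a list. Going from the values reported, 5 results (the number of members 1821, their share of shared summits 23.8%, host genes 1213, the share of eligible genes that were hosts 12.9% and members per Mb 2.59) became 938, 22.2%, 729, 7.73% and 1.34 with scores at or above the median of each list, and 687, 21.8%, 571, 6.06% and 0.978 with replicate 2 limited to as many top-scoring summits as replicate 1 has. At over 20000 bp from coding gene ends they were 1195, 15.6%, 770, 13.8% and 2.15. At over 5000 bp the share of shared summits was 31.3% and the members per Mb 2.93. With the ends of genes of every type, these were 18.8% and 2.38, with 11.4% of eligible genes as hosts. Pairing within 50 bp gave 12.2% and 2.38 per Mb.

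Leaving out 1 replicate, so that the other list stood alone, gave 2061 (replicate 1 alone) to 25087 (replicate 2 alone) deep summits, 23.5 to 31.8% of the list, 1277 to 6000 hosts, 13.5 to 63.7% of eligible genes and 2.94 to 35.7 per Mb. Most deep replicate 1 summits are members, so values with replicate 1 alone are not independent of the values reported. Members per Mb of a list divided by that of all eligible genes were added as a measure after the data were seen. For 7 of 165 alternatives this ratio crossed 1. KAP1 partners went from 1.07 to 0 at over 20000 bp, 0.965 with chromosome X added and 0.945 with replicate 1 alone. Muscle genes went from 0.949 to 1.01 with pairs within 500 bp and 1.11 at over 20000 bp. With replicate 2 alone, costimulatory genes went from 5.94 to 0.969 (6.56 with replicate 1 alone) and myeloid markers from 3.02 to 0.802 (2.66 with replicate 1 alone), and KAP1 partners were at 1.63. For T cell receptor signalling genes it went from 7.66 to 1.67 with replicate 2 alone, and for neuronal genes from 0.0256 to 0.644. With replicate 2 limited to top-scoring summits, the ratio went from 6.88 to 4.55 for NF-kappaB, NFAT and AP-1 genes, 2.56 to 1.57 for adhesion genes, 1.97 to 3.01 for chromatin regulators, 3.28 to 5.03 for ubiquitin ligase genes, 0.949 to 0.629 for muscle genes and 0.0256 to 0 for neuronal genes. The cause was not tested. The share of deep coding starts with a member was 1.34% within 100 bp and 4.58% within 1000 bp, distances added after the data were seen. No paired analysis was possible because the input samples of the same numbers were not analysed here and no test was made. Read depth is unknown, so what it limits cannot be stated.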

Other observations

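Genes above 500 kb with several members were chosen after their values were seen. Elmo1, Foxp1, Rora and Wwox held 4 members each, beside 19, 24, 24 and 42 unpaired deep replicate 2 summits. Foxp1 encodes a forkhead factor of quiescent T cells and Wwox an oxidoreductase at a fragile site. Pde4b and Pde4d, genes of cyclic AMP phosphodiesterases, held 3 each, beside 12 and 58 unpaired summits, and Inpp4b, a phosphoinositide phosphatase gene, held 3 beside 8.

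Some deep replicate 2 summits with high scores had no replicate 1 partner. The highest scored 82.2 and lay in Kctd16, 432109 bp from the nearest replicate 1 summit. The next scored 65.0 in Zbtb16, which encodes PLZF, a transcription factor of innate-like T cells, 173272 bp from the nearest replicate 1 summit. One in Sfi1 scored 64.2, at 78206 bp.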
